A study of Rattus norvegicus with 22 samples.

Results

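The insulin-like growth factor genes of the rat described here are 10 genes, which comprise the ligands Igf1 and Igf2, the receptors Igf1r and Igf2r, and the binding proteins Igfbp1 to Igfbp6. Their probe sets were found by gene symbol, and they are 10 of the 10411 genes that the array annotation names on its own for at least 1 probe set. A probe set is the group of short oligonucleotides on the array that together report 1 transcript. All 10 symbols were found, on 19 of 15866 probe sets: 4 for Igf2, 3 for Igfbp5, 2 each for Igf1, Igf2r, Igfbp3 and Igfbp6, and 1 each for Igf1r, Igfbp1, Igfbp2 and Igfbp4. Values are log2 levels, so a difference of 1 is a 2-fold difference, and levels of different probe sets are not set against each other.

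The study treated pregnant Wistar rats and profiled their tissues on 22 arrays. EMD150 animals received EMD 82571, a calcium sensitiser (a drug that raises the response of contractile proteins to calcium) also named MSC1096199, at 150 mg/kg/day, and EMD50 animals received it at 50 mg/kg/day. Retinoic acid, an active form of vitamin A and a known teratogen, was given at 12 mg/kg/day, and control animals received vehicle. Per the labels dosing started on gestational day 6 and ended on day 11 or day 17, while the study's summary of its design names day 17 alone. For tissue taken on day 12 dosing cannot have reached day 17. Samples of day 20 and day 12 can therefore also differ in the length of dosing and the time since the last dose. On day 20 embryo bone, embryo liver and maternal liver each have 4 arrays, 1 per treatment, and on day 12 whole embryo and maternal liver each have 5, with 2 for retinoic acid. The titles of the 2 retinoic acid arrays of day 12 carry the codes RA5 and RA56, those of day 20 carry RA56, and the labels do not explain the codes. All dams were pregnant. The labels do not say which tissues came from the same dam or litter, or whether tissue was pooled, so that p-values measure the spread between these samples, which may be technical.

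Igf1 and Igf2 are secreted growth factors that signal through the tyrosine kinase receptor encoded by Igf1r. Igf2r, the cation-independent mannose 6-phosphate receptor, takes Igf2 into the cell for breakdown. The binding proteins carry the ligands in blood and tissue and hold them away from, or deliver them to, the receptor. Before birth Igf2 is the main ligand in rodents and is expressed from the paternal allele alone, and after birth it is shut down in rodent liver while growth hormone, through the receptor Ghr, drives hepatic Igf1. Igfals encodes the acid-labile subunit that holds Igf1 and Igfbp3 in the long-lived serum complex, and Igfbp1 is a liver protein that insulin represses and fasting raises.

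Array medians lay between 8.09 and 8.22 on the log2 scale. Tissue labels were checked against marker genes. Albumin stood at 14.93 to 14.98 in embryo liver and at 15.13 to 15.22 in maternal liver, and the collagen gene Col1a1 stood at 14.55 to 14.68 in embryo bone. Several arrays carried transcripts of another tissue or a 3′ to 5′ control signal unlike the rest. The EMD50 bone array had a 3′ minus 5′ difference of the Gapdh control probes of 2.72, against 0.57 to 0.86 on the other 21 arrays. The retinoic acid maternal liver of day 20 had the highest level of its 4 arrays for 10 of 12 skeletal muscle markers, with a mean log2 level of 9.63 against 7.25 to 7.40 on the other 3. The mean log2 level of 10 pancreatic acinar markers was 7.71 to 7.75 in the treated maternal livers of day 20, against 9.11 in control. On day 12 it was 9.77 in EMD50 maternal liver and 7.49 to 7.55 on the other 3 treated arrays, against 10.50 in control. Albumin ranged from 9.44 to 13.60 in bone and from 8.59 to 12.0 in whole embryo. No value on this scale is 0, and the lowest of any probe set was 4.86.

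Igf2 and Igf1 had opposite levels in the conceptus and the dam. In what follows, 1 probe set stands for each gene, the one with the highest mean over the 22 arrays, and the others are named where they differ. Igf2 had a log2 level of 14.20, 14.24, 14.21 and 14.07 in embryo liver of the retinoic acid, control, EMD50 and EMD150 groups, against 8.18, 7.87, 7.90 and 7.81 in maternal liver of day 20, in the same order of groups. Every embryo liver array lay above every maternal liver array, and the treatments within a tissue differed little beside that gap. The log2 difference was 6.24 ± 0.10 (SE, 4 arrays each), a 75.5-fold higher level in embryo liver (limma adjusted p = 1.51e-09). Bone and whole embryo were also high, with 14.38, 14.38, 14.15 and 14.25 in bone of the retinoic acid, control, EMD50 and EMD150 groups. In whole embryo of day 12 the 2 retinoic acid arrays had 13.86 and 13.64, and control, EMD50 and EMD150 had 13.81, 13.35 and 13.47. Over the 22 arrays this probe set spanned 6.79 log2 units, a span reached by 97 of the 15866 probe sets, itself included, whereas the median probe set spanned 1.27.

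Igf1 showed the reverse order. Its log2 level was 9.20, 8.93, 8.90 and 8.16 in embryo liver of the retinoic acid, control, EMD50 and EMD150 groups, against 12.56, 12.73, 12.68 and 12.49 in maternal liver of day 20. The livers did not overlap, and embryo liver had the lowest mean of the 5 combinations of tissue and day. Relative to maternal liver, the log2 level in embryo liver fell by 3.82 ± 0.14 (SE, 14.1-fold, limma adjusted p = 2.21e-07), and the second Igf1 probe set was 11.9-fold lower (adjusted p = 4.22e-07). In order of its mean level, Igf1 ran from maternal liver of day 12 (12.79 ± 0.09, SD, n = 5) through maternal liver of day 20 (12.62 ± 0.11, n = 4), bone (10.50 ± 0.36, n = 4) and whole embryo (9.19 ± 0.23, n = 5) to embryo liver (8.80 ± 0.45, n = 4). By this representative probe set the maternal livers of both days overlapped each other, as did whole embryo and embryo liver, whereas bone stood clear of its neighbours on either side. By the second Igf1 probe set the maternal livers of both days did not overlap. Bone then overlapped maternal liver of day 20, with 11.47 in retinoic acid bone against 11.44 in control maternal liver. The order of Igf2 was bone, embryo liver, whole embryo, maternal liver of day 20 and maternal liver of day 12, with overlap between the first pair and the last pair.

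**Figure D1:**
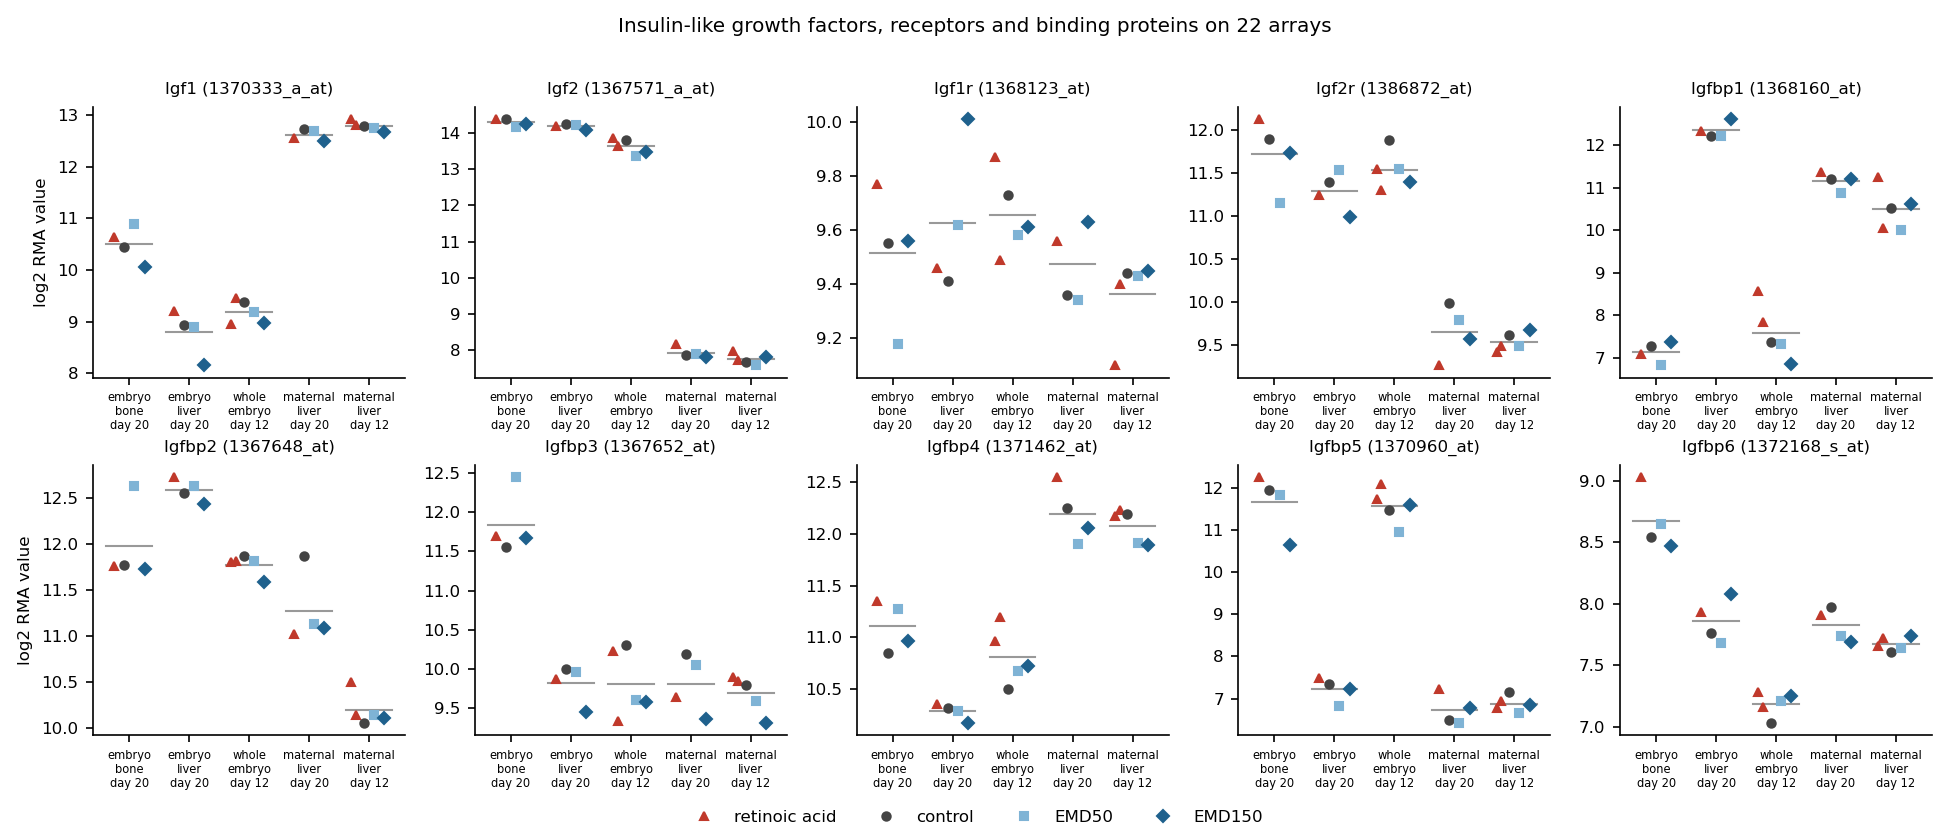
Log2 levels of the 10 genes, 1 probe set each, on every array, by tissue and day. Points are single arrays coloured by treatment and grey lines are means. Igf2 lies between 13.35 and 14.38 in all embryonic samples and between 7.59 and 8.18 in all maternal livers, Igf1 is highest in maternal liver, and Igfbp1 is high in both kinds of liver and low in bone and whole embryo.

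In all, 9 of the 19 probe sets differed between embryo and maternal liver of day 20 at an adjusted p under 0.05, 6 higher and 3 lower in embryo liver, where 37.5% of all probe sets did so. The median difference of the 19 was 0.16, and that of all probe sets 0.05. The count of calls is therefore read together with that background, and the sizes of the single differences are given here. In bulk tissue fewer cells of a type and less RNA per cell cannot be told apart. Embryo liver also had higher levels of erythroid markers, as fetal liver makes blood: all 4 were higher on every array, and their summed log2 level was 53.4 to 53.7 in embryo liver, against 37.6 to 40.1 in maternal liver. Of 9 adult liver enzymes, 7 were lower on every embryo liver array, with a summed log2 level of 78.8 to 81.5 in embryo liver, against 104.8 to 107.5 in maternal liver. The sums for 9 hepatocyte markers were 125.2 to 125.6 in embryo liver and 128.2 to 128.7 in maternal liver. The part of the blood-forming cells in the differences of the IGF genes was not tested.

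The receptors had smaller differences than the ligands. Igf2r had a log2 level of 11.24, 11.40, 11.54 and 10.99 in embryo liver of the retinoic acid, control, EMD50 and EMD150 groups, against 9.26, 9.99, 9.79 and 9.57 in maternal liver of day 20. The groups did not overlap, and embryo liver was 3.11-fold higher (log2 difference 1.64 ± 0.12, adjusted p = 8.34e-06). The second Igf2r probe set gave 2.59-fold (adjusted p = 2.47e-05). Igf2r was at 11.15 to 12.13 in bone and at 11.30 to 11.88 in whole embryo, overlapping embryo liver, so that all 3 embryonic sources lay above both maternal livers. Igf1r, whose product transmits the signal of both ligands, was nearly level. It stood at 9.46, 9.41, 9.62 and 10.01 in embryo liver and at 9.56, 9.36, 9.34 and 9.63 in maternal liver of day 20, in the same order of groups. The log2 difference was 0.16 (adjusted p = 0.281, 95% interval from -0.08 to 0.39). Its ranges overlapped between every pair of neighbours in the order of means, and over the 22 arrays it spanned 0.91 log2 units, less than the median probe set.

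Among the binding proteins, Igfbp1, Igfbp2 and Igfbp4 separated the 2 kinds of liver on every array. Igfbp1 had a log2 level of 12.33, 12.22, 12.22 and 12.61 in embryo liver of the retinoic acid, control, EMD50 and EMD150 groups, against 11.36, 11.19, 10.88 and 11.20 in maternal liver of day 20, which is 2.28-fold higher in embryo liver (log2 difference 1.19 ± 0.11, adjusted p = 3.7e-05). Igfbp2, a binding protein that is abundant in fetal serum, had 12.73, 12.55, 12.63 and 12.43 in embryo liver, against 11.02, 11.87, 11.13 and 11.08 in maternal liver. It was 2.48-fold higher in embryo liver (log2 difference 1.31 ± 0.16, adjusted p = 0.000208), and the nearest maternal array was the control liver. Igfbp4, which holds Igf1 away from its receptor until proteases such as pappalysin cut it, went the other way. Its log2 level was 10.35, 10.32, 10.29 and 10.17 in embryo liver, against 12.55, 12.25, 11.90 and 12.06 in maternal liver. Embryo liver was lower by 3.76-fold (log2 difference -1.91 ± 0.11, adjusted p = 2.52e-06).

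Igfbp3, the main carrier of Igf1 in adult serum, did not pass the test between the livers, with log2 levels of 9.87, 10.004, 9.96 and 9.45 in embryo liver and 9.64, 10.19, 10.05 and 9.36 in maternal liver (log2 difference 0.01, adjusted p = 0.933). Igfbp6, which prefers Igf2 as its ligand, differed by 0.03 (adjusted p = 0.845). Igfbp5 stood low in both livers, at 6.83 to 7.48 in embryo liver and 6.42 to 7.23 in maternal liver. Its log2 difference of 0.49 ± 0.10 passed the test (adjusted p = 0.0057), but the call was lost when all 22 arrays entered the fit (adjusted p = 0.111) and without the treatment block (adjusted p = 0.0744), and neither of its other 2 probe sets passed.

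**Figure D2:**
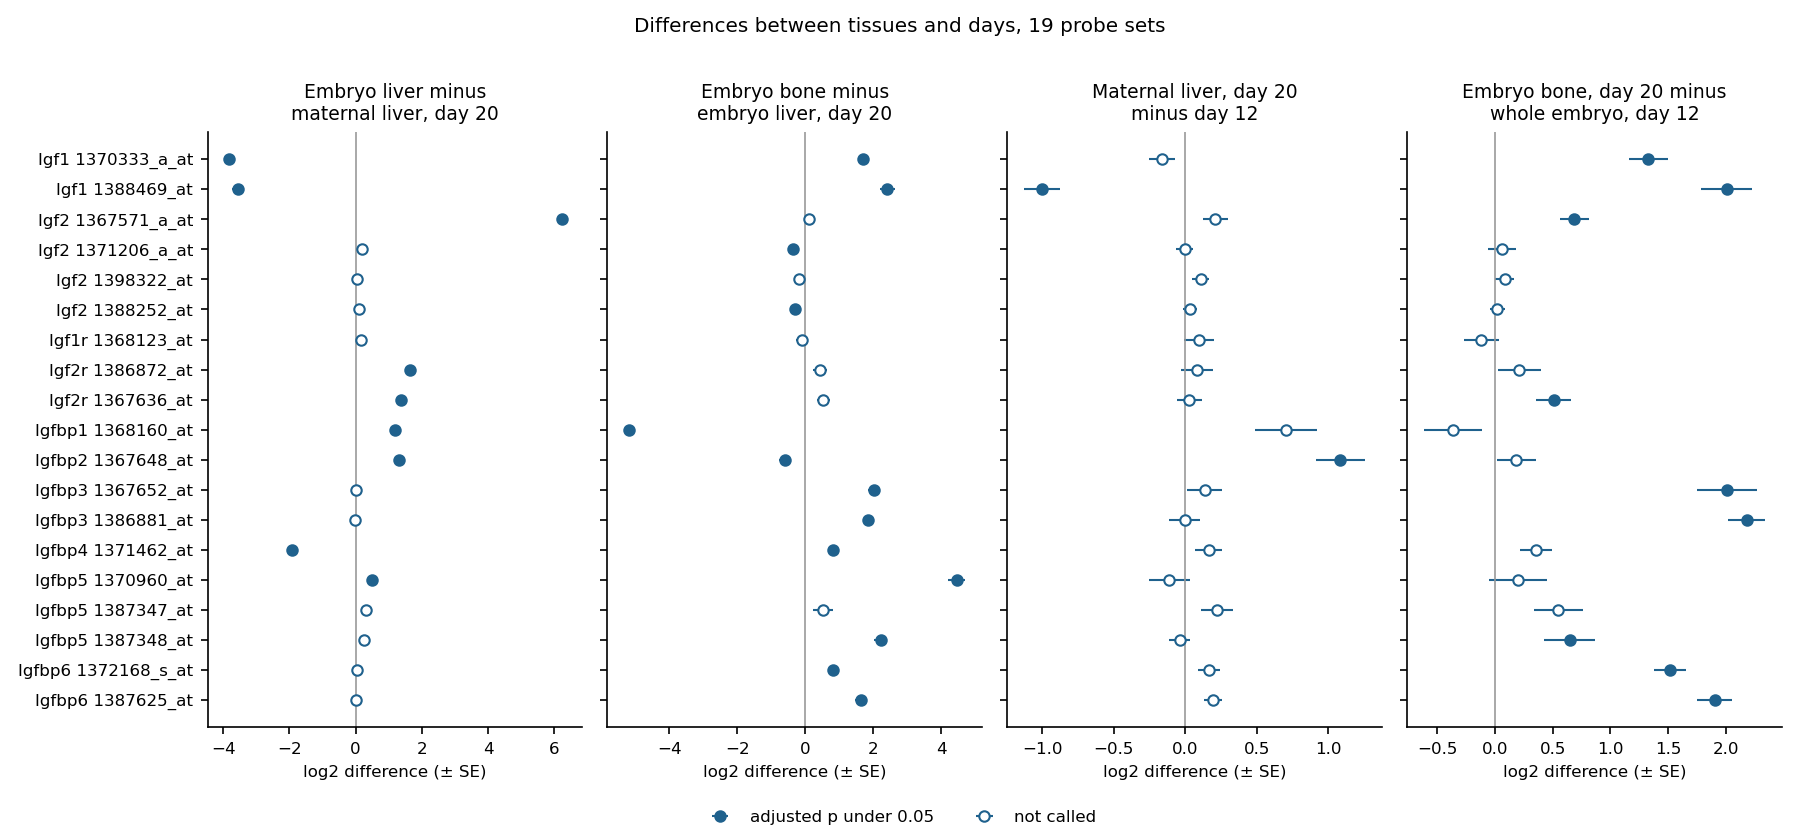
Log2 differences with their standard errors for the 19 probe sets in 4 of the 5 tissue comparisons, the first-named tissue minus the second, on x axes that differ between panels. Filled points have an adjusted p under 0.05. Igf2 (6.24) and Igf1 (-3.82) lead the comparison of embryo with maternal liver, and Igfbp1 (-5.20) and Igfbp5 (4.45) that of bone with embryo liver.

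Igfbp1 and Igfbp3 are neighbouring protein-coding genes on chromosome 14 in the RefSeq annotation of build GRCr8, on opposite strands, and in bone against embryo liver Igfbp1 was lower and Igfbp3 higher, as given further on. Their promoter windows are shown for that reason, together with that of Igf1, each holding the 250 bases before the gene's RefSeq start on the gene's own strand, written 5′ to 3′. Capitals mark matches to 2 short motifs: CAAAANAA on either strand (TTNTTTTG on the other), the core of the insulin response element described in Igfbp1 promoters, and GTTAAT on either strand (ATTAAC on the other), a part of the site of the liver factor HNF1.
Igfbp1, chr14:86261027-86261276, plus strand: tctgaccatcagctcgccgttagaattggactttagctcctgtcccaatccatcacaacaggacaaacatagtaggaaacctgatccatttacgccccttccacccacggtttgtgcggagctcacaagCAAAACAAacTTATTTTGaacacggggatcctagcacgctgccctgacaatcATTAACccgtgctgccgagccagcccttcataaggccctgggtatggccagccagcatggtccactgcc
Igfbp3, chr14:86277945-86278194, minus strand: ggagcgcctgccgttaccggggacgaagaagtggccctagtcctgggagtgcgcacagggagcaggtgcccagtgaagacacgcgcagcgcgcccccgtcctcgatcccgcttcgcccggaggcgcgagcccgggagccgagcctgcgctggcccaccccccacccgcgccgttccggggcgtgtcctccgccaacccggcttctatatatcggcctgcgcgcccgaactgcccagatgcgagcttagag
Igf1, chr7:24172282-24172531, plus strand: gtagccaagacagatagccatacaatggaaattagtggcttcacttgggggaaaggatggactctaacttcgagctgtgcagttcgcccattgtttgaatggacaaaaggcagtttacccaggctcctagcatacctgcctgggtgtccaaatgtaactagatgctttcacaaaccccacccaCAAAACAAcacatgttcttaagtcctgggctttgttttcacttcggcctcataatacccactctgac
The Igfbp1 window held the first motif at 121 to 114 and at 111 to 104 bases before the start, once on each strand and without overlap, and the second at 69 to 64 bases. The Igf1 window held the first motif once, at 67 to 60 bases, and the Igfbp3 window held neither. All 10 genes had a window and Igf2 had 2. Of these 11 windows 2 held the first motif and 1 the second, where 7.5% and 6.5% of 33469 windows of the same length in the table did. The sequence TATAAA, searched on both strands, was found in 1 of the 11, that of Igfbp4, and in 12.9% of all windows. A match is a description of the letters and not a site of binding.

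Bone of day 20 differed from embryo liver of the same day in 13 of the 19 probe sets, 9 higher and 4 lower in bone, where 44.2% of all probe sets differed. The median difference was 0.53 for the 19 and -0.07 for all probe sets. Igfbp1 had the largest difference of the 19, and its log2 level was 7.10, 7.27, 6.83 and 7.37 in bone of the retinoic acid, control, EMD50 and EMD150 groups, far below the embryo livers given above. Bone was 36.8-fold lower (log2 difference -5.20 ± 0.12, limma adjusted p = 1.5e-06). Igfbp5, a binding protein stored in bone matrix, was the opposite, with 12.26, 11.96, 11.82 and 10.64 in bone, against 7.48, 7.34, 6.83 and 7.22 in embryo liver. Bone was 21.9-fold higher (log2 difference 4.45 ± 0.25, adjusted p = 2e-05), and its lowest array was that of EMD150.

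Igfbp3 had a log2 level of 11.70, 11.55, 12.45 and 11.67 in bone of the retinoic acid, control, EMD50 and EMD150 groups, against 9.87, 10.004, 9.96 and 9.45 in embryo liver. Bone was 4.05-fold higher by this probe set (adjusted p = 0.000116) and 3.62-fold by the other (adjusted p = 4.52e-05). The other 4 sources of Igfbp3 overlapped their neighbours in the order of means for both probe sets, and bone did not. Igfbp6 was also highest in bone, with 9.03, 8.54, 8.65 and 8.47, against 7.93, 7.76, 7.68 and 8.08 in embryo liver (log2 difference 0.81 ± 0.14, adjusted p = 0.00389, and 1.63 ± 0.16 with adjusted p = 0.000241 by the other probe set). Without the EMD50 and control bone arrays the first of these missed the threshold (0.74, adjusted p = 0.0593). Igfbp4 had 11.35, 10.85, 11.27 and 10.96 in bone, against 10.35, 10.32, 10.29 and 10.17 in embryo liver, and was 1.77-fold higher in bone (adjusted p = 0.00212). Igfbp2 was lower in bone, with 11.76, 11.77, 12.63 and 11.73, against 12.73, 12.55, 12.63 and 12.43 in embryo liver (log2 difference -0.61 ± 0.17, adjusted p = 0.025). That call was lost without the control, EMD150 or retinoic acid array of either tissue, with adjusted p between 0.0823 and 0.105.

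Of the ligands, Igf1 was higher in bone than in embryo liver, with log2 levels of 10.64, 10.44, 10.89 and 10.05 in bone of the retinoic acid, control, EMD50 and EMD150 groups, every one above the embryo livers. The difference was 3.26-fold by this probe set (adjusted p = 9.41e-05) and 5.34-fold by the other (adjusted p = 0.000135). Igf2 differed by 0.11 ± 0.11 on the log2 scale and did not pass (adjusted p = 0.4). Igf1r did not pass either (log2 difference -0.11, adjusted p = 0.6). Igf2r was 0.44 and 0.53 log2 units higher in bone by its 2 probe sets, without passing (adjusted p = 0.13 and 0.0609). Without the EMD50 bone array, which has the lowest Igf2r of the bone arrays at 11.15 and the altered Gapdh ratio, both passed (log2 differences 0.71 and 0.75, adjusted p = 0.00459 and 0.00521).

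Bone samples held muscle and fibroblast transcripts as well as bone and cartilage ones. All 11 bone and cartilage markers were higher on every bone array, with a summed log2 level of 125.0 to 129.4 in bone, against 80.8 to 82.4 in embryo liver. So were 10 of 12 skeletal muscle markers, with sums of 133.0 to 143.4 in bone and 93.7 to 100.2 in embryo liver, and 6 of 7 fibroblast markers. All 9 hepatocyte markers were lower on every bone array, with sums of 71.7 to 90.3 in bone and 125.2 to 125.6 in embryo liver. Which of these cells carried the IGF transcripts of bone was not tested. The hepatocyte sums were 89.7, 90.3, 71.7 and 72.9 in bone of the retinoic acid, control, EMD50 and EMD150 groups, while Igfbp1 stayed between 6.83 and 7.37 on all 4.

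In maternal liver the 2 days of pregnancy differed in 2 of the 19 probe sets, 1 higher and 1 lower on day 20, where 6.08% of all probe sets differed. The median difference was 0.10 for the 19 and 0.02 for all. Igfbp2 had a log2 level of 11.02, 11.87, 11.13 and 11.08 on day 20 in the retinoic acid, control, EMD50 and EMD150 groups. On day 12 the 2 retinoic acid livers had 10.50 and 10.14, and the control, EMD50 and EMD150 livers 10.05, 10.14 and 10.11. The days did not overlap, and Igfbp2 was 2.12-fold higher on day 20 (log2 difference 1.09 ± 0.17, adjusted p = 0.0123). The control liver was the highest of day 20, and on that array the acinar markers were raised, as given above. On day 12 the control liver, with the highest acinar level, had the lowest Igfbp2. The part of acinar RNA was not tested.

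Igf1 depended on the probe set. The second Igf1 probe set had 12.21, 11.44, 11.97 and 11.68 on day 20 in the retinoic acid, control, EMD50 and EMD150 groups, against 12.98 and 13.03 in the retinoic acid livers and 12.96, 12.85 and 12.56 in the control, EMD50 and EMD150 livers of day 12. The days did not overlap, and the level was 2-fold lower on day 20 (log2 difference -1.0 ± 0.13, adjusted p = 0.00523). The representative probe set was lower by 0.16 ± 0.09 and did not pass (adjusted p = 0.321). Igfbp1 was higher by 0.70 ± 0.22 without passing (adjusted p = 0.0943). Its levels were 10.88 to 11.36 on day 20, against 11.26 and 10.05 in the retinoic acid livers and 10.53, 9.999 and 10.62 in the control, EMD50 and EMD150 livers of day 12. Without the RA5 liver of day 12, at 11.26, the difference was 0.86 (adjusted p = 0.0197).

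Both embryonic tissues of day 20 were also set against whole embryo of day 12, a comparison of tissue and of day at once, which cannot be told apart. In embryo liver 11 of 19 probe sets differed from whole embryo, 7 higher and 4 lower, where 68.2% of all probe sets did. The median difference of the 19 was 0.01 and that of all 0.07. Igfbp1 was 28.7-fold higher in embryo liver (adjusted p = 1.87e-07), against whole embryo levels of 8.58 and 7.85 in the retinoic acid arrays and 7.37, 7.33 and 6.85 in control, EMD50 and EMD150. Igfbp5 was 19.4-fold lower in embryo liver (adjusted p = 7.88e-09), and whole embryo, with 11.73 and 12.10 in the retinoic acid arrays and 11.48, 10.95 and 11.59 in the others, stood near bone. The mean of the 9 hepatocyte markers was 13.91 to 13.96 in embryo liver and 8.05 to 9.82 in whole embryo, and their part in Igfbp1 was not tested. Igfbp2 was higher by 0.82 ± 0.09 (adjusted p = 3.08e-05), Igf2 by 0.57 ± 0.10 (adjusted p = 0.000558) and Igfbp6 by 0.69 (adjusted p = 0.000297). Igfbp4 had a log2 difference of -0.48 (adjusted p = 0.00608), a call lost after quantile normalization (-0.17, adjusted p = 0.299). The second Igf1 probe set was called at -0.44 (adjusted p = 0.0376) and lost without the EMD150 embryo liver (-0.28, adjusted p = 0.171) or any of several other arrays. The representative Igf1 probe set did not pass (-0.36, adjusted p = 0.0678). The other 3 Igf2 probe sets were also called, with differences of 0.28 to 0.43, and 2 of them were lost without the control embryo liver (0.31 and 0.23, adjusted p = 0.0596 and 0.0628).

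In bone 9 of 19 probe sets were higher than in whole embryo and 0 lower, where 33.8% of all probe sets differed. The unadjusted p was under 0.05 for 11 of the 19. No array share at that level is set beside this count, so nothing is read from it. The median difference was 0.51 for the 19 and 0.01 for all. Igfbp3 was higher by 2.01 ± 0.26 and 2.18 ± 0.16 by its 2 probe sets (adjusted p = 0.000362 and 1.35e-05), Igfbp6 by 1.52 and 1.90 (adjusted p = 5.42e-05 and 2.48e-05), and Igf1 by 1.33 ± 0.17 and 2.01 ± 0.22 (adjusted p = 0.000351 and 0.000156). Igf2 was higher by 0.69 ± 0.13 (adjusted p = 0.00261). The remaining calls were 1 probe set each of Igf2r (0.51, adjusted p = 0.0298) and Igfbp5 (0.65, adjusted p = 0.0472). Both were lost without any 1 of several arrays, with adjusted p up to 0.153 for Igf2r and 0.25 for Igfbp5, in both cases without the retinoic acid bone array. Igfbp1 and the representative Igfbp5 probe set did not pass (log2 differences -0.36 and 0.20).

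Probe sets of a gene mostly rose and fell together, with exceptions in Igf2 and Igfbp5. Over the 22 arrays Pearson's r was 0.97 for the pair of Igf1, 0.98 for Igf2r, 0.95 for Igfbp3 and 0.90 for Igfbp6, all as descriptions across tissues that differ. The 2 probe sets of Igf2r and of Igfbp3 each come from a single source sequence. Of the 4 Igf2 probe sets, 3 were built on 1 source sequence, another than that of the representative, and lay between 5.78 and 7.57 on every array. Their r with the representative probe set was -0.18, -0.24 and -0.32. They did not pass the test between the livers, where the representative differed by 75.5-fold (log2 differences 0.19, 0.03 and 0.09, adjusted p = 0.127, 0.786 and 0.248). In bone against embryo liver 2 of them were lower, with log2 differences of -0.36 and -0.31 (adjusted p = 0.0174 and 0.00985), where the representative was at 0.11. The first of these calls was lost without the control, EMD50 or retinoic acid array of either tissue, with adjusted p between 0.0509 and 0.0934. The 2 Igfbp5 probe sets other than the representative share a source sequence. Their r with each other was 0.65, and with the representative it was 0.55 for the flatter and 0.95 for the other.

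**Figure D3:**
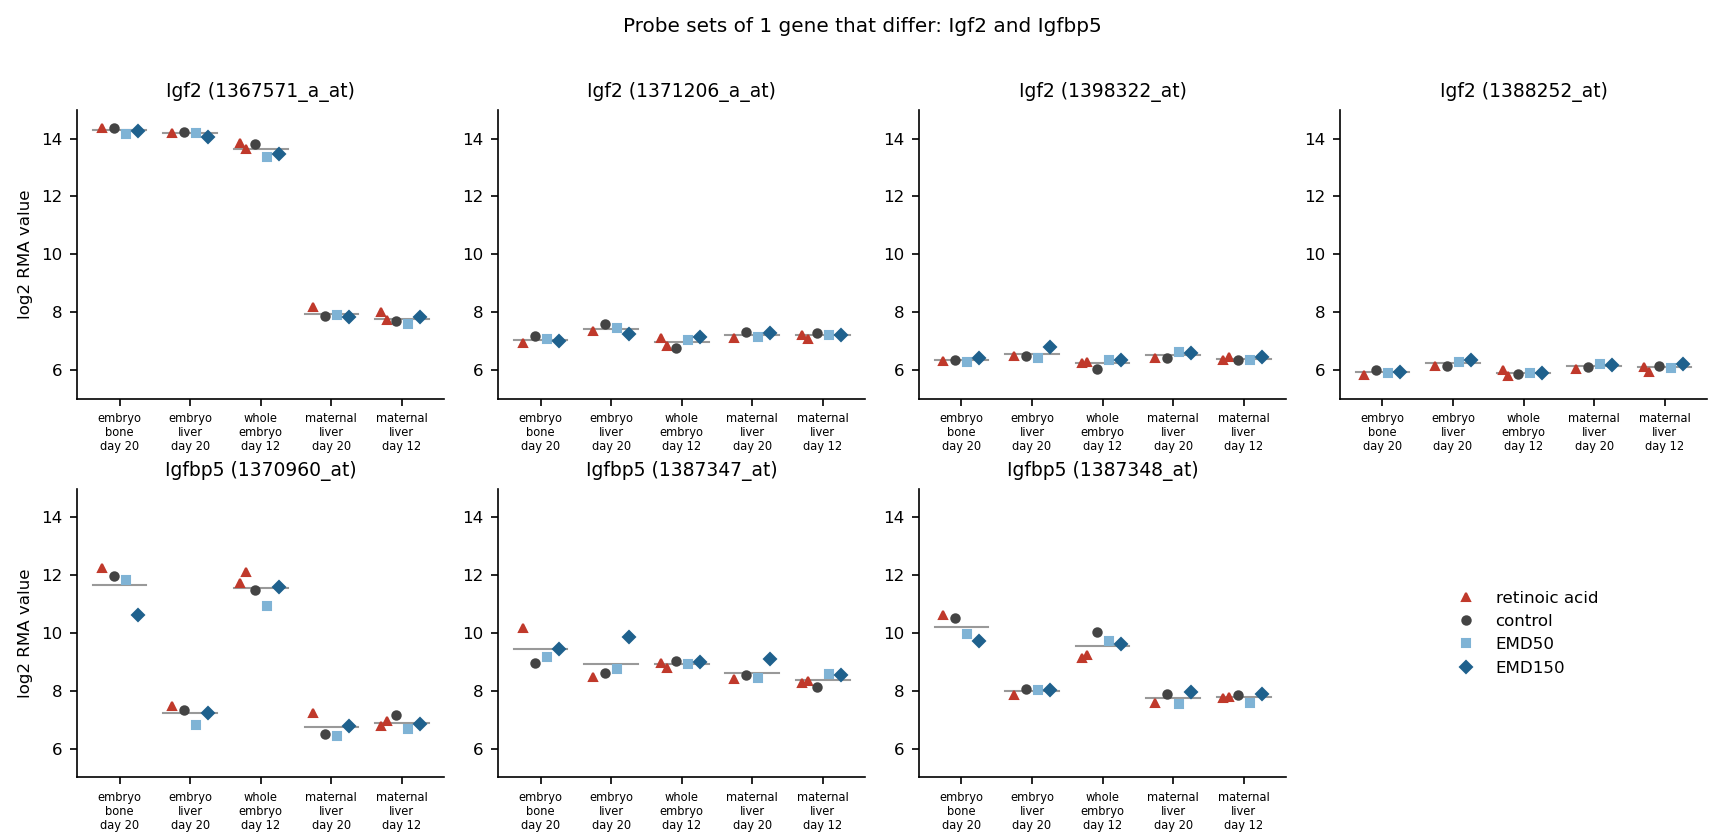
Log2 levels of the 4 Igf2 and the 3 Igfbp5 probe sets on every array, by tissue and day, on 1 y axis. The representative Igf2 probe set runs from 7.59 to 14.38, while the other 3 stay between 5.78 and 7.57. The representative Igfbp5 probe set runs from 6.42 to 12.26, and the flattest of its 3 from 8.12 to 10.16.

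The genes around the family also separated embryo from maternal liver. Ghr, the growth hormone receptor, had a log2 level of 6.71 to 7.06 in embryo liver, against 12.82, 11.92, 12.15 and 12.16 in maternal liver of the retinoic acid, control, EMD50 and EMD150 groups. It was lower in embryo liver with a log2 difference of -5.30 ± 0.14 (adjusted p = 2.9e-08), and the prolactin receptor Prlr had a difference of -4.94 ± 0.21 (adjusted p = 4.07e-07). Igfals had a difference of -3.20 ± 0.12 (adjusted p = 1.97e-07). Socs2, an inhibitor that growth hormone induces, had a difference of -1.30. In all, of 11 genes of the growth hormone axis and circulating complex, 1 was higher and 5 lower in embryo liver (median -0.17, against 0.05 for all probe sets), where 37.5% of all probe sets were called in either direction. The same share is the background of the list counts for the livers that follow.

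A list made up mainly of imprinted growth genes had 9 measured genes, H19, Dlk1, Meg3, Plagl1, Cdkn1c, Mest and Gnas together with the insulin genes Ins1 and Ins2, and 8 of the 9 were higher and 0 lower in embryo liver (median 2.47). Ins1 and Ins2 were among the 8, with differences of 0.31 and 0.41, and both are named after their values were seen. H19, the noncoding neighbour of Igf2 that is expressed from the maternal allele, was at 14.04 to 14.15 in embryo liver, against 9.99, 8.85, 8.14 and 8.2 in maternal liver of the retinoic acid, control, EMD50 and EMD150 groups (log2 difference 5.31 ± 0.28, adjusted p = 1.37e-06). The retinoic acid maternal liver, highest of the 4, is the array with the skeletal muscle markers. Cdkn1c, an inhibitor of the cell cycle, was higher by 4.27, Meg3 by 3.85 and Mest by 3.69. Among 16 genes of receptor signalling 3 were higher and 5 lower. Grb10, an imprinted adaptor that restrains insulin and IGF receptors, was at 12.43 to 12.99 in embryo liver, against 7.31 to 7.80 in maternal liver (log2 difference 5.21 ± 0.12, adjusted p = 1.4e-08). Foxo3, a transcription factor that the insulin and IGF pathway inhibits, was higher by 1.59.

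Of 11 proteases of binding proteins and their inhibitors, 0 were higher and 2 lower in embryo liver: Htra1, a secreted serine protease, by a log2 difference of -2.83, and Plg, the precursor of plasmin, by -0.41. Of 6 liver genes that insulin and fasting regulate, 1 was higher and 4 lower, among them Tat (-5.36) and Pck1 (-4.90), enzymes of amino acid breakdown and gluconeogenesis. Of 6 secreted genes related to the binding proteins, Ccn3 alone was called, with -3.43. In bone against embryo liver, where 44.2% of all probe sets were called, the counts higher and lower were 5 and 3 for the proteases (Mmp2 3.61, Htra1 2.81, Plg -5.15), 6 and 2 for the list with the imprinted genes (Plagl1 3.83, Gnas 1.59, Mest 1.49, Cdkn1c 1.84), 2 and 4 for receptor signalling (Akt1 1.45, Grb14 -1.23), 0 and 3 for the growth hormone axis, 0 and 3 for the fasting genes, and 5 and 0 for the genes related to the binding proteins (Ccn2 3.41). The 2 lower ones of the list with the imprinted genes were Ins1 (-0.51) and Ins2 (-0.50).

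Between the days of maternal liver, where 6.08% of all probe sets were called, Ghr was higher on day 20 by 1.04 ± 0.14 (adjusted p = 0.00619) and Cish by 0.996 (adjusted p = 0.024), the 2 calls among the 11 genes of the growth hormone axis. Akt2 was the 1 call of 16 in receptor signalling (0.36) and Stc2, which inhibits pappalysins, the 1 of 11 among proteases and inhibitors (0.30). Cpt1a (1.44) and Pck1 (0.84) were higher and Srebf1 (-0.55), a lipid synthesis factor that insulin raises, lower, of 6 fasting genes. Ccn3 was higher by 3.28 and Mest had a difference of -1.28. Counts against whole embryo, higher and lower, were 9 and 0 for the 11 genes of the growth hormone axis in embryo liver, where 68.2% of all probe sets were called, and 2 and 0 in bone, where 33.8% were. They were 5 and 4 for the 9 genes of the list with the imprinted genes in embryo liver and 6 and 0 in bone.

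**Figure D4:**
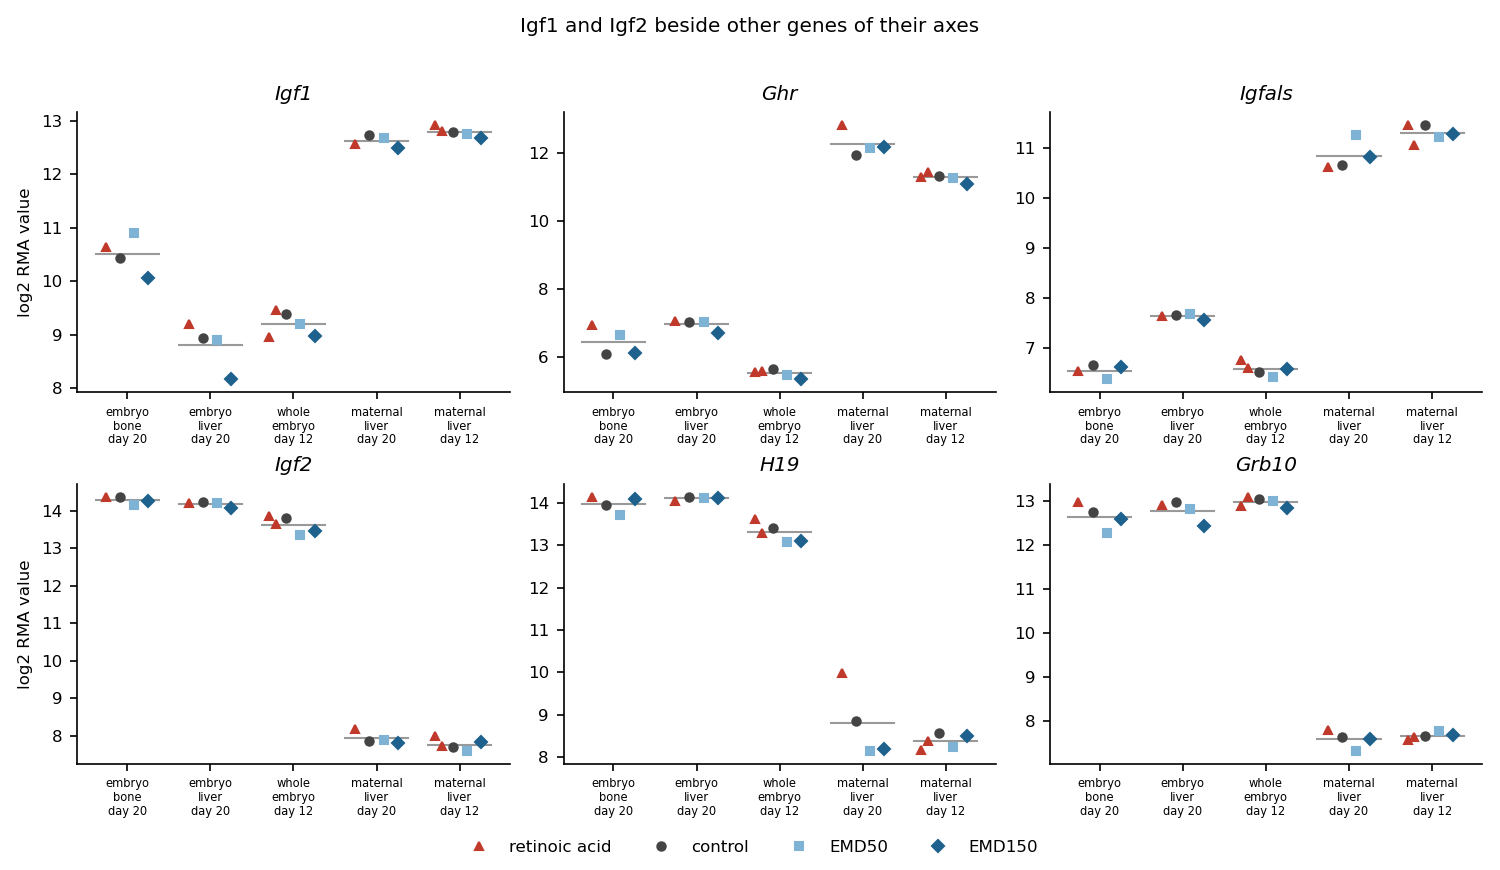
Log2 levels of Igf1, Ghr and Igfals and of Igf2, H19 and Grb10 on every array, by tissue and day, coloured by treatment. Ghr lies between 5.34 and 7.06 in embryonic samples and between 11.09 and 12.82 in maternal liver, and Grb10 lies between 12.27 and 13.11 in embryonic samples and between 7.31 and 7.80 in maternal liver.

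Of the other 10410 genes on the array, those whose representative probe set had the highest Pearson's r with Igf2 over the 22 arrays were H19 (0.99), Grb10 (0.99) and Gpc3 (0.98), a cell-surface proteoglycan. Igf1 was most like Cdo1 (0.99), Lrp1 (0.97) and Lgals8 (0.97), Igfbp1 most like Ak4 (0.98), Gys2 (0.96) and Mtfp1 (0.96), and Igfbp2 most like Ifrd2 (0.91), Atp5if1 (0.89) and Bnip3l (0.88). These values describe 5 clusters of arrays that share tissue and day.

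Treatments were compared over all 5 combinations of tissue and day, with that combination as a block, because each has 1 control array. Neither dose of EMD 82571 changed any of the 19 probe sets at an adjusted p under 0.05 by limma, nor any other probe set on the array (0% called for EMD150 and 0% for EMD50). At an unadjusted p under 0.05 there were 5 member probe sets for EMD150 against control, among 2925 on the array, and 0 for EMD50, among 253. Retinoic acid against control called 0 of the 19, where 1.83% of the array was called, and 3 had an unadjusted p under 0.05. No array count at that unadjusted level is set beside the 3, so nothing is read from them. EMD150 against EMD50 called 0 of the 19 and 0% of the array, with 4 and 2311 probe sets at an unadjusted p under that level. Among the 19 the lowest adjusted p was 0.195 for EMD150, 0.0797 for retinoic acid and 0.288 for EMD150 against EMD50.

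EMD150 against retinoic acid was the 1 comparison of treatments with calls in the family: 4 of 19 probe sets were lower in EMD150 and 0 higher, where 14.4% of the array differed. Both Igf1 probe sets were among them. The representative was 10.05 in EMD150 bone against 10.64 in retinoic acid bone, and 8.16 in EMD150 embryo liver against 9.20 in retinoic acid embryo liver. In whole embryo it was 8.97 in EMD150 against 8.96 and 9.45 in retinoic acid. In maternal liver it was 12.49 against 12.56 on day 20, and 12.67 against 12.92 and 12.81 on day 12. EMD150 was lower than the retinoic acid mean in 5 of 5 combinations, most in embryo liver, with a log2 difference of -1.05, and least in maternal liver of day 20 (-0.08). The block-adjusted difference was -0.42 ± 0.12 (1.33-fold lower in EMD150, adjusted p = 0.0316), and the second Igf1 probe set gave -0.71 ± 0.17 (1.64-fold, adjusted p = 0.0147).

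The other 2 calls were Igfbp4 and the second Igfbp3 probe set, which is not the representative. Igfbp4 was 10.96, 10.17, 10.72, 12.06 and 11.89 in EMD150 bone, embryo liver, whole embryo and maternal liver of days 20 and 12, against retinoic acid means of 11.35, 10.35, 11.08, 12.55 and 12.20. The difference was -0.35 ± 0.10 (1.28-fold lower in EMD150, adjusted p = 0.0299). That Igfbp3 probe set was 11.08, 9.24, 8.97, 9.09 and 8.89 in EMD150, in the same order, against retinoic acid means of 11.56, 9.44, 9.25, 9.46 and 9.78 (difference -0.46 ± 0.11, 1.38-fold, adjusted p = 0.0159). The representative Igfbp3 probe set was lower in 5 of 5 combinations and did not pass (-0.33 ± 0.17, adjusted p = 0.168). The representative Igf2 probe set was also lower in 5 of 5, with differences from -0.37 to -0.03, without a call. Of the other 3 Igf2 probe sets, 2 were higher in 5 of 5 and 1 in 4 of 5, also without a call. The representative Igfbp5 probe set was lower in 5 of 5 and its other 2 were higher in 4 of 5, without a call. How many probe sets of the whole array lay on 1 side of retinoic acid in 5 of 5 was not counted.

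The calls depended on scaling and on a few arrays. After each array was scaled to the same spread 2 remained, with the representative Igf1 probe set (-0.29, adjusted p = 0.123) and Igfbp4 (-0.18, adjusted p = 0.286) lost, and after quantile normalization 1 remained, the second Igf1 probe set. All 4 calls were lost when 3 retinoic acid arrays were left out, those of bone, of maternal liver of day 20 and the RA56 whole embryo. The differences were then -0.42 and -0.51 for Igf1, -0.57 for Igfbp3 and -0.25 for Igfbp4 (adjusted p between 0.0993 and 0.293), and 0.0126% of the array was called. The mean of 9 hepatocyte markers was 9.82 in the kept RA5 whole embryo, against 9.74 in the RA56 one. In control bone it was 10.03, against 9.96 in retinoic acid bone. Leaving out 3 arrays also lowers the power of the fit, which cannot be told apart from the content of the arrays. Leaving out the EMD150 bone array alone left 1 call, and leaving out the EMD150 embryo liver or the RA56 whole embryo left 2. On the retinoic acid arrays the mean of 9 hepatocyte markers was 9.96 in bone and 9.82 and 9.74 in whole embryo, against 8.09 in EMD150 bone and 8.05 in EMD150 whole embryo. In embryo liver the hepatocyte mean was 13.93 in EMD150 and 13.96 in retinoic acid, with 1 array each. In maternal liver of day 20 the mean of 12 skeletal muscle markers was 7.40 in EMD150 and 9.63 in retinoic acid. The part of these transcripts in the differences of the IGF genes was not tested.

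In the same comparison, with 14.4% of the array called and 0.0126% without the 3 retinoic acid arrays, Ghr (-0.42, adjusted p = 0.0297), Socs2 (-0.72, adjusted p = 0.0124) and Cish (-0.58, adjusted p = 0.0169) were lower in EMD150, 3 of the 11 genes of the growth hormone axis, with 0 higher. Of the 16 receptor signalling genes 3 were lower: Pik3ca (-0.60), Foxo3 (-0.35) and Grb14 (-0.36). Mest (-0.68) and Gnas (-0.31) were lower among the 9 genes of the list with the imprinted genes, Ccn2 (-0.48) among the 6 genes related to the binding proteins, and Stc1 (0.23) and Mmp3 (0.15) were higher among the 11 proteases and inhibitors. Of the 6 fasting genes 0 were called. Against control, EMD150 and EMD50 called 0 genes in each of the 6 lists, and retinoic acid over all tissues called Foxo3 (0.52, adjusted p = 0.0259) and no other listed gene. In a fit of the conceptus, with 1.9% of the array called, retinoic acid called 2 of the 9 genes of the list with the imprinted genes higher and 0 lower, Dlk1 (0.70, adjusted p = 0.0333) and Plagl1 (0.78, adjusted p = 0.0397), and 0 genes in the other 5 lists.

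Against control, the member with the lowest adjusted p for EMD150 was Igfbp3. Its second probe set was lower than control in 5 of 5 combinations, with a mean difference of -0.49 ± 0.12 (adjusted p = 0.195). Its EMD150 levels, listed above, stood against control levels of 11.25, 9.66, 9.35, 9.75 and 9.73 in bone, embryo liver, whole embryo and maternal liver of days 20 and 12. The representative Igfbp3 probe set was lower in 4 of 5, with a similar mean difference (-0.50). The representative Igf1 probe set was lower in 5 of 5 (-0.39 ± 0.13, adjusted p = 0.202), the second in 3 of 5 (-0.13). An Igf2 probe set other than the representative went the other way, higher than control in 5 of 5 (0.19 ± 0.06, limma adjusted p = 0.2). With EMD50, Igfbp1 and 2 of the 3 Igfbp5 probe sets were lower than control in 5 of 5. The smallest of these differences were near 0, at -0.003 for Igfbp1 in embryo liver and -0.01 for 1 of the Igfbp5 probe sets. None of these differences passed after adjustment. How many probe sets of the whole array lay on 1 side of control in 5 of 5 was not counted. All such counts use the same 5 control arrays. At 5 arrays a dose the 95% interval, which is not adjusted for the number of probe sets, ran for the representative Igf1 probe set from -0.66 to -0.12 for EMD150 and from -0.24 to 0.30 for EMD50.

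With retinoic acid the second Igf1 probe set was higher than control on 7 of 7 arrays, at 11.47 in bone against 10.17 in control bone and 8.69 in embryo liver against 8.47 in control. In whole embryo it was 8.95 and 9.39 against 8.44. In maternal liver it was 12.21 against 11.44 on day 20, and 12.98 and 13.03 against 12.96 on day 12. The 2 retinoic acid arrays of a tissue on day 12 share 1 control, so the 7 arrays are not independent. The share of the array with 7 of 7 was not counted. The difference was 0.58 ± 0.17 (adjusted p = 0.0797), and the representative probe set was higher on 5 of 7 (0.03 ± 0.12). Igfbp4 was higher on 6 of 7 arrays (0.29 ± 0.10, adjusted p = 0.172). When the conceptus (whole embryo, embryo liver and bone) was fitted apart from maternal liver, retinoic acid called 0 of the 19 in the conceptus, where 1.9% of the array was called, and 0 in maternal liver, where 0.0756% was. At an unadjusted p under 0.05 there were 3 and 0 of the 19. The difference of the effect between conceptus and maternal liver, tested itself, had 0 calls among the 19 (0 of them at an unadjusted p under 0.05) and 0% of the array. With EMD 82571, and both doses in 1 group, there were likewise 0 calls among the 19 and 0% of the array in maternal liver, in the conceptus and in the difference between them. At an unadjusted p under 0.05 there was 1 of the 19 in each. No array shares are set beside the unadjusted counts of these fits, so nothing is read from them.

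**Figure D5:**
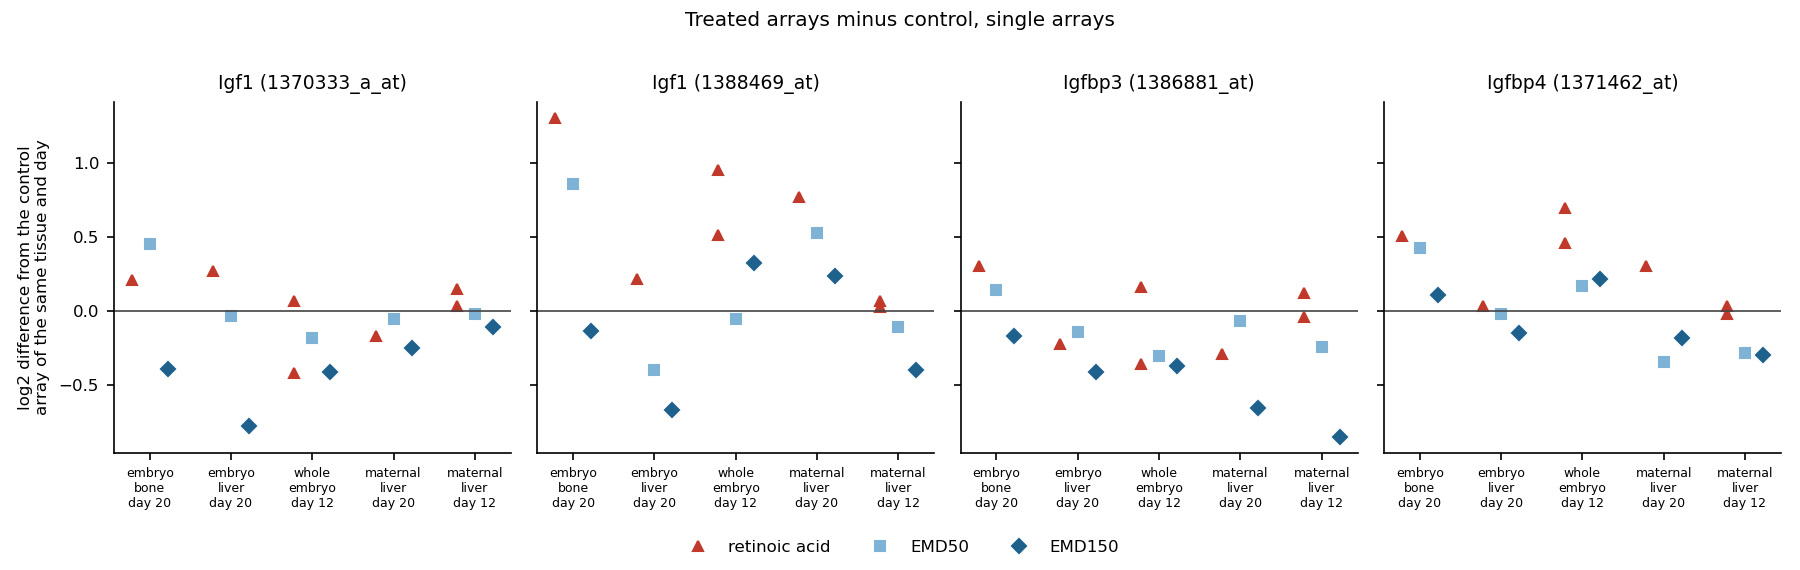
Differences of single treated arrays from the control array of the same tissue and day, in log2 units, for both Igf1 probe sets, 1 Igfbp3 probe set and Igfbp4. The second Igf1 probe set is above 0 on all 7 retinoic acid arrays. The representative Igf1 probe set and the second Igfbp3 probe set are below 0 on all 5 EMD150 arrays. The representative Igfbp3 probe set was 0.12 above control in EMD150 bone.

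Within 1 tissue and day, where a drug has 1 array (retinoic acid on day 12 has 2) against 1 control, single arrays were set against the control with no test, and 5 member values differed by 2-fold or more. In bone, retinoic acid had the second Igf1 probe set at 11.47 against 10.17 in control and 1 Igfbp5 probe set at 10.16 against 8.95 in control, 2 of 19 where 2.88% of the array differed so far. EMD150 had the representative Igfbp5 probe set at 10.64 in bone, against 11.96 in control, 1 of 19 where 0.794% did. The other 2 Igfbp5 probe sets were at 9.73 and 9.46 in EMD150 bone, against 10.53 and 8.95 in control, and so went both ways. In embryo liver, EMD150 had the flattest of the Igfbp5 probe sets at 9.85 against 8.61 in control, 1 of 19 where 0.92% did. In whole embryo, Igfbp1 was 8.58 in the RA5 array, against 7.37 in control, 1 of 19 where 3.18% did. The RA56 array had 7.85, and the hepatocyte markers averaged 9.82 and 9.74 in the RA5 and RA56 whole embryos, against 8.75 in control. The part of these transcripts in Igfbp1 was not tested. In the other combinations 0 of 19 passed 2-fold. For EMD50 the shares of the array that did were 3.52% in bone, 0.0567% in embryo liver, 0.46% in whole embryo, and 0.246% and 0.126% in maternal liver of days 20 and 12. For EMD150 they were 0.876% in whole embryo and 0.315% and 0.321% in the maternal livers of days 20 and 12. With retinoic acid the shares stood at 0.99% in embryo liver, 1.36% in the RA56 whole embryo, 1.81% in maternal liver of day 20, and 0.391% and 0.233% in the RA5 and RA56 maternal livers of day 12.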

How the data were processed

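RNA of 22 rat samples was hybridised to 1-colour oligonucleotide arrays. The deposited table holds log2 values that the authors made with RMA, a background correction, normalization and summary of probes, per the submitters' processing notes, with no version of RMA stated there. Of 15923 entries 57 were array controls and were left out. The array's annotation gave 1 symbol to 12783 of the 15866 probe sets, several to 312 and none to 2771. Levels of a gene are given for the probe set with the highest mean, and all 19 were tested. Genes are named by rule: all members, up to 4 genes per pathway list and comparison by smallest p (Ins1 and Ins2 are named outside it), and the 3 genes most like Igf1, Igf2, Igfbp1 and Igfbp2. The members and lists were chosen with earlier results of these data known.

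Samples were grouped by their labels. Tests used limma 3.58.1 in R 4.3.3 (lmFit, and eBayes with a trend), two-sided, with Benjamini-Hochberg adjustment over the 15866 probe sets and a threshold of 0.05. Tissue and day pairs had treatment as a block, treatments had tissue and day as a block, and single arrays were described by 2-fold differences. Alternatives were quantile normalization, scaling of arrays, a filter at the 25th percentile of means, no trend, no block, 1 model of all 22 arrays, other probe sets and leaving out arrays. In tests on simulated data of the 15866 probe sets, a change of 1 log2 unit was recovered for 86% of changed probe sets between embryo and maternal liver and for 95.7% between retinoic acid and control. Calls on unchanged probe sets numbered 30 and 33 over all draws. The simulated noise was independent between arrays, with the spread of a fit of all 22 arrays, and the drug change was equal in every tissue. These shares therefore do not give the power for the real samples. The number of arrays limits the precision. Promoter sequences and gene order are from RefSeq, build GRCr8.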

Additional observations from a re-analysis of the deposited data

Results flagged for a closer look

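Of 95 groups of 4 or 5 arrays tested for a single value far from the others, 6 had one, where chance gives about 1 in 20. Of the 6, 4 were in Igfbp2. Its log2 level was 12.63 in EMD50 bone (next 11.77), 11.87 in the control maternal liver of day 20 (next 11.13), 10.50 in the RA5 maternal liver of day 12 (next 10.14) and, as a low value, 11.59 in EMD150 whole embryo (next 11.80). Igfbp3 stood at 12.45 in EMD50 bone (next 11.70), on the array whose Gapdh 3′ minus 5′ difference was 2.72. Igf1r was lowest in the RA5 maternal liver of day 12, at 9.10 (next 9.40).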

How the results depend on the processing

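No analysis paired by dam or litter was possible because the labels do not tie samples to a dam or litter. The tissue fits pair arrays by treatment, and without that block the calls numbered 8, 13, 2, 11 and 8, in the order of comparisons below, against 9, 13, 2, 11 and 9. Calls for EMD150 against retinoic acid numbered 4, against 2 after scaling, 1 after quantile normalization, 0 without 3 retinoic acid arrays, and 1 to 5 when single arrays were left out, and the cause was not tested. Leaving out single arrays gave 0 to 1 for retinoic acid against control (Igf1, 0.69, adjusted p = 0.0473, without the control maternal liver of day 12) and 0 to 1 in the conceptus (Igfbp5, -0.68, adjusted p = 0.045, without retinoic acid bone). It gave 9 to 11 calls for embryo against maternal liver, 11 to 14 for bone against embryo liver, 2 to 3 for the days of maternal liver, 9 to 14 for embryo liver against whole embryo and 7 to 9 for bone against whole embryo. The other alternatives gave 8 to 9, 12 to 16, 2, 9 to 14 and 8 to 11, in the same order. Over the array, the share called ranged from 23.2% to 55.2% for bone against embryo liver, from 1.15% to 10.4% for the days of maternal liver, from 18.1% to 46.6% for bone against whole embryo, from 0.0126% to 26.2% for EMD150 against retinoic acid, from 0% to 2.97% for retinoic acid against control and from 0.0315% to 2.85% for it in the conceptus. For embryo liver against whole embryo the calls split 7 higher and 4 lower, and 7 and 2 after quantile normalization. With 2 of the other Igf2 probe sets, the difference of bone from embryo liver had the other sign (-0.36 and -0.31). The representative itself had no call there (0.11, limma adjusted p = 0.4), so no called difference was reversed. These 2 are counted as reversed below. A tally was made of single probe set results, without the counts of calls. It holds called probe sets under each alternative other than leaving out single arrays, and every change of call. Other probe sets of a gene were added where either probe set was called. In this tally 255 kept direction and side of the threshold, 79 lost a call, 41 gained one and 2 reversed. Unchanged results of leaving out single arrays are not in it, so these numbers are not shares of all values recomputed.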
